A study of Mus musculus with 15 samples.

Results

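Transcripts of the mitochondrial ribosomal proteins were examined in the mouse macrophage line RAW264.7 after activation with lipopolysaccharide (LPS), a bacterial outer membrane component that these cells detect with Toll-like receptor 4. The set was taken from the gene symbols alone. It holds every gene whose probe set carries exactly 1 symbol and whose symbol starts with Mrpl or Mrps followed by a digit, with the brightest probe set kept for each gene. This gave 71 genes, 43 of the large subunit (Mrpl) and 28 of the small subunit (Mrps) by symbol, of 22180 genes on the array. All 71 passed the filter on low values, as did 15468 genes in all. A further 7 symbols, Mrpl30, Mrpl33, Mrpl41, Mrpl43, Mrpl44, Mrpl53 and Mrps6, lay only on probe sets shared with other genes and were left out.

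The 15 arrays fell into 5 groups of 3. Of the groups with 1.0 µg/mL LPS, one received 5.0 µM 13-HDHEA, one 5.0 µM 16-HDHEA, one 2.5 µM of each (the combined treatment) and one vehicle. The group without LPS received vehicle and PBS. Compounds or vehicle were added 30 min before LPS, ethanol was held at 0.1% in every group, and cells were harvested after 24 h. HDHEAs are hydroxydocosahexaenoyl ethanolamides, oxidised derivatives of the ethanolamide of docosahexaenoic acid. The 13- and 16- forms are positional isomers that carry the hydroxyl group on different carbons. All groups come from 1 transformed cell line, and the 3 replicate numbers are 3 experiments, each of which holds all 5 groups.

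Mitochondrial ribosomes translate the few messages encoded by mitochondrial DNA, all of which are core subunits of the respiratory chain and of ATP synthase. Their RNAs come from the mitochondrial genome, while every one of their proteins is encoded in the nucleus, made in the cytosol and imported. Some of these proteins have counterparts in bacterial ribosomes, and others are found only in mitochondria. In macrophages, LPS is known to move energy metabolism towards glycolysis, so the supply of mitochondrially made respiratory subunits is of interest there.

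The values are log2 expression per probe set. Means over the 15 arrays ran between 3.49 for Mrps36 and 10.13 for Mrpl52, with a median of 7.49 over the 71 genes. A probe set's brightness also depends on its probes, so these levels do not rank the transcripts. In all, 67 of the 71 exceeded the 60th percentile of every array. The other 4 were dim: Mrpl27, Mrpl48, Mrps14 and Mrps36 lay at mean percentiles of 49.4, 54.9, 60.4 and 46.8. The median SD within a group, over the 71 genes, was 0.122 in LPS-treated cells with vehicle and 0.0835 in cells without LPS, with the HDHEA groups in between.

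Over all genes, 63.8% of the variance lay on a single axis, along which the 12 arrays with LPS stood apart from the 3 without. All 9 macrophage markers examined exceeded the 40th percentile of every array. With LPS, 4 of the 9 were called: Adgre1 rose by 4.50, Fcgr1 by 1.56 and Cd14 by 0.30, and Csf1r fell by 0.24. Of 5 lymphocyte and 6 neutrophil markers, none exceeded it on every array. Of 6 fibroblast markers 3 did so, and of 6 epithelial and endothelial markers 4, with Pdgfra and Cdh5 called higher with LPS. On the log2 scale, the summed signal of the fibroblast markers was 6.32 to 6.51 in LPS-treated cells with vehicle and 5.84 to 6.17 in cells without LPS. That of the epithelial and endothelial markers was 7.17 to 7.27 with LPS and vehicle and 6.93 to 7.19 without LPS, and that of the macrophage markers 14.50 to 14.62 with LPS and vehicle and 14.38 to 14.49 without LPS. The part of these markers in the results was not tested.

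LPS-treated cells with vehicle were first set against cells without LPS, which asks what activation did to these transcripts. The set did not move one way. Of the 71 genes, 9 rose, 7 fell and 55 did not pass the test, which is 22.5% called, against 29.8% of all genes tested. Calls higher made up 13.5% of all genes and calls lower 16.3%. The median log2 difference over the set was -0.01 (quartiles -0.15 and 0.13), and over all genes it was 0.0002. In 1 gene, Mrpl52, the difference exceeded 1 on the log2 scale in either direction, as it did in 6.59% of all genes. Calls rest on limma's test with Benjamini-Hochberg adjustment over all 15468 genes, at an adjusted p under 0.05. In a bulk sample, fewer cells of a type and less RNA per cell cannot be told apart, and the authors' normalization hides a shift that most genes share.

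**Figure D1:**
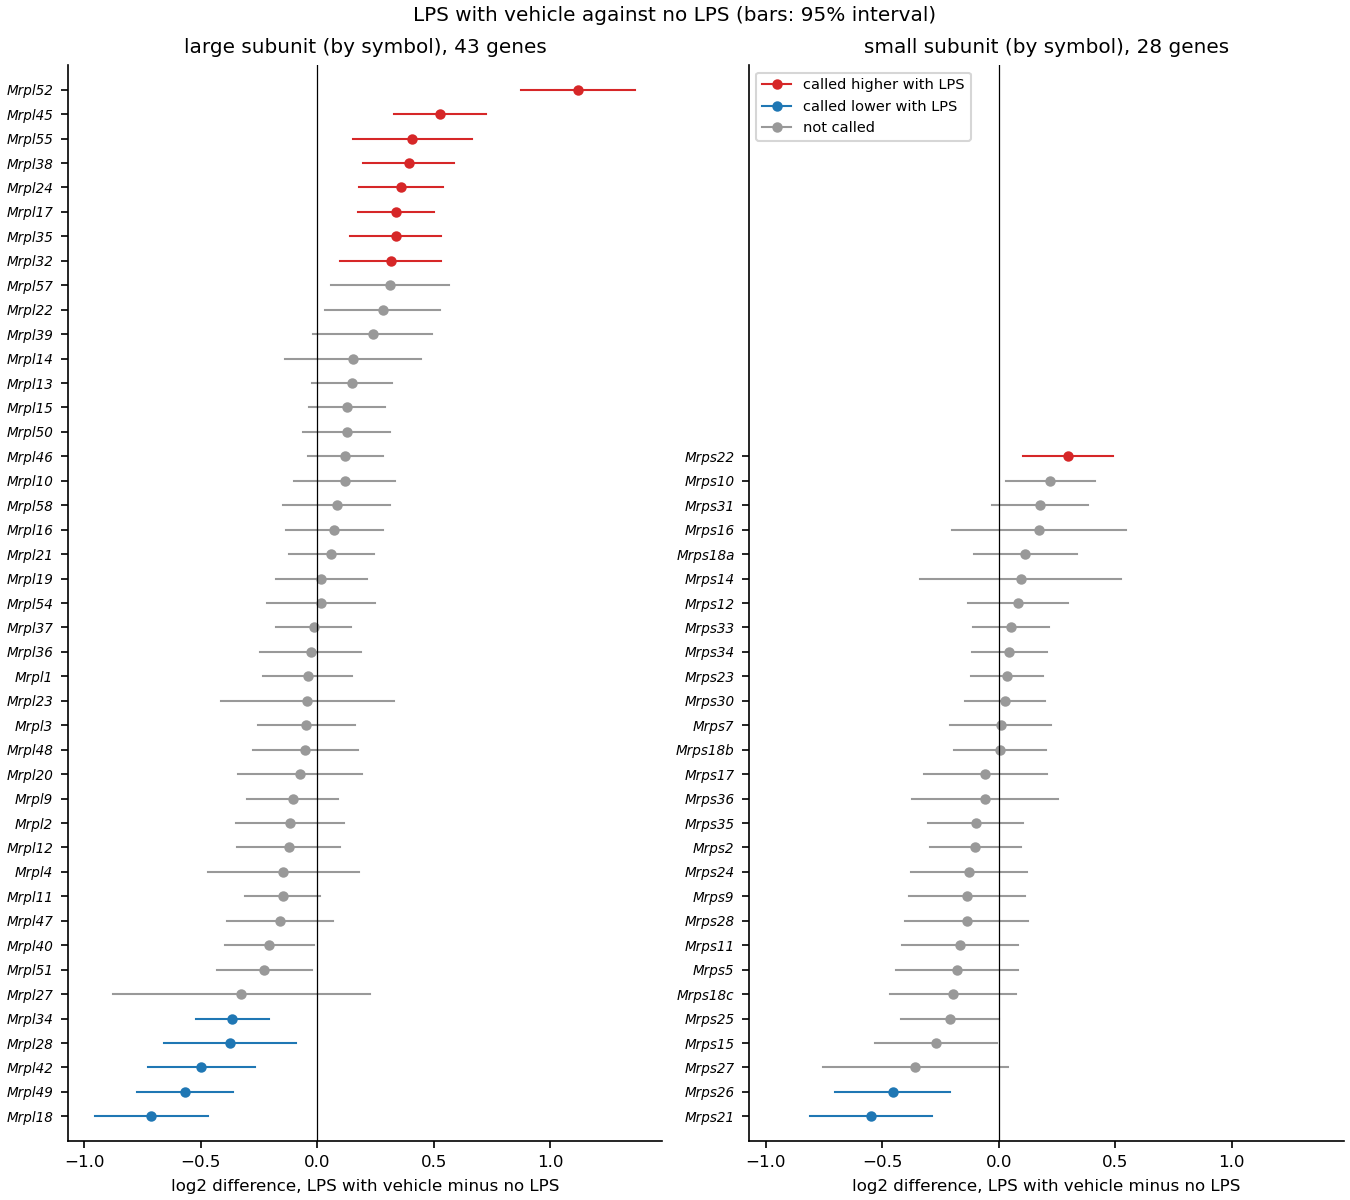
Log2 difference, LPS with vehicle minus no LPS, for the 43 large subunit genes (left) and 28 small subunit genes (right) by symbol; points are limma estimates from 3 arrays a group and bars are 95% intervals. Red genes were called higher, blue genes lower, and grey genes were not called; Mrpl52 at 1.12 and Mrpl18 at -0.71 stand at the ends.

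The promoters of 4 of the genes that changed are shown, to set regulatory letters of genes that moved in opposite directions side by side: Mrpl52 and Mrpl17 rose, and Mrpl18 and Mrpl42 fell. Each runs 250 bases before to 50 bases after the annotated start, on the gene's strand, from RefSeq's GRCm38.p6 annotation. Capitals mark matches, on either strand, to CCGGAAG (the core bound by ETS factors such as GABP), GCGCATGC (a core of the NRF1 site) or AAGATGGCG (a core of the YY1 site). Each of the 4 windows holds a match. Those of Mrpl45, Mrpl55, Mrpl24 and Mrpl49, which changed more than Mrpl17, hold none, so the windows shown are not typical of the called genes.
Mrpl52, chr14:54426659-54426958, plus strand: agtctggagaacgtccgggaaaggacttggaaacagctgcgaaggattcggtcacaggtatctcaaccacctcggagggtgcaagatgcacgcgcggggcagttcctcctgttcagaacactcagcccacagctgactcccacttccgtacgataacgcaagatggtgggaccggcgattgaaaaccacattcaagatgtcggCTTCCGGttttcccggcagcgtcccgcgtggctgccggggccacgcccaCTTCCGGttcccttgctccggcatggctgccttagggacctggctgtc
Mrpl17, chr7:105811038-105811337, minus strand: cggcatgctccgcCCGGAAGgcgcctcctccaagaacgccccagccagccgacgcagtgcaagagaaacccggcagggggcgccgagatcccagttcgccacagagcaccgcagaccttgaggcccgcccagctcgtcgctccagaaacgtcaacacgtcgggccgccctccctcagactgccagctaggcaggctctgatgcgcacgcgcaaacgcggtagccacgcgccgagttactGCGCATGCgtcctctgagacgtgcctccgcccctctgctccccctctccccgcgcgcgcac
Mrpl18, chr17:12916042-12916341, minus strand: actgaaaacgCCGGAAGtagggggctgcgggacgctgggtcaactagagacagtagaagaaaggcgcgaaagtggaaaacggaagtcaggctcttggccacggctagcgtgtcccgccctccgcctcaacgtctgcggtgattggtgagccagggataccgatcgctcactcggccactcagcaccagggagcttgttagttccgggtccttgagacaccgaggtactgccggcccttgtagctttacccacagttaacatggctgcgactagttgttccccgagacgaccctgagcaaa
Mrpl42, chr10:95501900-95502199, minus strand: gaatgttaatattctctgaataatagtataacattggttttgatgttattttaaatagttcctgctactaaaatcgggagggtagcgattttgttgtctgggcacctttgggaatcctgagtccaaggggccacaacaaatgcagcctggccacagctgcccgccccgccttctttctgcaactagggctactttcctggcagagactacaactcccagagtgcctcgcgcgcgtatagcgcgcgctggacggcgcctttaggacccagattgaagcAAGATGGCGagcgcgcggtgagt

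Mrpl52, a large subunit protein with no bacterial counterpart, had the largest increase. Its log2 values were 10.30, 10.17 and 10.47 in LPS-treated cells with vehicle, against 9.26, 9.06 and 9.27 in cells without LPS. The difference was 1.12 (95% interval 0.87 to 1.37), a 2.17-fold increase, with an adjusted p of 3.96e-06. The 3 experiments gave 1.05, 1.11 and 1.20. Values in the 9 HDHEA arrays lay between 10.20 and 10.54, so all 12 arrays with LPS lay above all 3 without. The printed window holds the ETS letters at 2 places.

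Mrpl45 sits at the mouth of the polypeptide exit tunnel, where it holds the ribosome to the inner membrane in structures from other mammals. It had 8.71, 8.61 and 8.60 in LPS-treated cells with vehicle, against 8.21, 8.08 and 8.06 in cells without LPS, a difference of 0.53 (0.33 to 0.72, adjusted p = 0.000501). Among the other large subunit genes without a bacterial counterpart, Mrpl38, a protein of the central protuberance, rose by 0.39 (0.20 to 0.59). Its lowest value without LPS, 8.19 in experiment 2, stood apart from 8.56 and 8.44 in the other experiments.

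Of the large subunit genes with bacterial counterparts, Mrpl55 rose by 0.41, and Mrpl24, Mrpl17, Mrpl35 and Mrpl32 by 0.36, 0.34, 0.34 and 0.32. Mrpl17 was the most even of them, at 9.53, 9.54 and 9.54 with LPS and vehicle, against 9.18, 9.16 and 9.25 without LPS. Its promoter window holds an ETS and an NRF1 match. Mrpl32 is known, in yeast and mouse, as a protein that a protease of the inner membrane must process before it joins the ribosome. It had 7.83, 7.77 and 7.58 with LPS and vehicle, against 7.35, 7.55 and 7.34 without LPS. The lowest value with LPS and the highest without nearly met. Without vehicle replicate 2, Mrpl32, Mrpl35 and Mrpl55 were not called. Mrpl32 and Mrpl35 were also not called without no-LPS replicate 3, nor Mrpl32 and Mrpl55 without no-LPS replicate 1, nor Mrpl32 without vehicle replicate 1. When the fit held just the compared groups, Mrpl32 and Mrpl35 were not called either.

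The only small subunit gene called higher was Mrps22, a mitochondria-specific protein whose human gene is mutated in severe disorders of mitochondrial translation. Its log2 values were 7.61, 7.71 and 7.53 in LPS-treated cells with vehicle and 7.34, 7.43 and 7.18 in cells without LPS, a difference of 0.30 (0.11 to 0.49, adjusted p = 0.0206). In the 9 HDHEA arrays it lay between 7.39 and 7.74, which overlaps the cells without LPS. It no longer passed with vehicle replicate 1, vehicle replicate 2 or no-LPS replicate 3 left out, nor when the fit held just the compared groups. Mrps10 (0.22) joined it as a higher call with a 60th percentile filter, with arrays centred on their median and with quantile normalization repeated.

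Mrpl18 fell most. It is the counterpart of the bacterial protein that binds 5S ribosomal RNA, and it lies in the central protuberance of the large subunit. It had 8.40, 8.46 and 8.50 in LPS-treated cells with vehicle, against 9.11, 9.23 and 9.15 in cells without LPS. The difference was -0.71 (-0.96 to -0.47), or 1.64-fold lower, with an adjusted p of 0.000223. The 3 experiments gave -0.72, -0.77 and -0.65. All 12 arrays with LPS, at 8.10 to 8.54, lay below all 3 without.

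Mrpl49 and Mrpl42, large subunit proteins found only in mitochondria, fell as well. Mrpl49 had 7.75, 7.86 and 7.71 in LPS-treated cells with vehicle, against 8.41, 8.30 and 8.31 without LPS, a difference of -0.57 (-0.77 to -0.36). Mrpl42 had 7.34, 7.37 and 7.44 with LPS and vehicle, against 7.96, 7.86 and 7.82 without LPS, a difference of -0.50 (-0.73 to -0.27). Neither gene's 12 arrays with LPS overlapped the 3 without. The Mrpl42 window holds the YY1 letters near its end and no ETS or NRF1 match.

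Of the small subunit genes, Mrps21 and Mrps26 fell. Mrps21, the counterpart of bacterial S21, had 6.71, 6.49 and 6.87 in LPS-treated cells with vehicle, against 7.10, 7.23 and 7.38 without LPS, a difference of -0.55 (-0.81 to -0.29, adjusted p = 0.00324). Mrps26, which is specific to mitochondria, differed by -0.45 (-0.70 to -0.21). Of the bacterial-type large subunit genes, Mrpl34 fell by 0.37 with little spread: it had 8.52, 8.43 and 8.53 with LPS and vehicle, against 8.88, 8.85 and 8.85 without LPS. Mrpl28 differed by -0.38 with an adjusted p of 0.045 and was called under only 8 of 23 other settings.

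**Figure D2:**
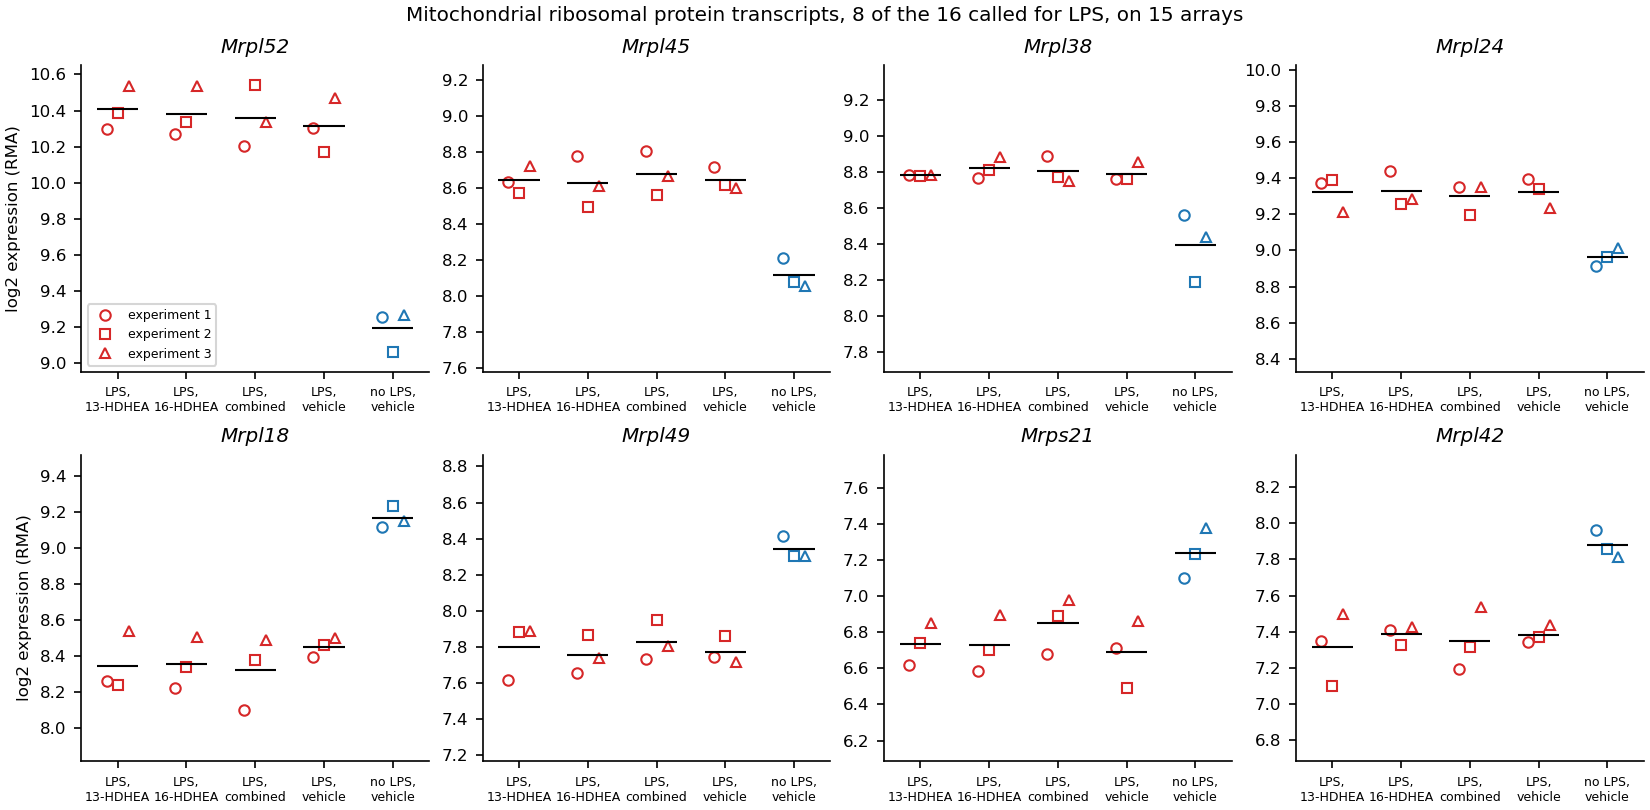
Log2 expression of 8 of the 16 genes called for LPS, on all 15 arrays, 4 that rose (top) and 4 that fell (bottom); symbols are the 3 experiments, bars are group means of 3 arrays, red marks LPS and blue no LPS, and every panel spans the same log2 range. For each gene all 12 arrays with LPS lie on one side of the 3 without, and the 4 LPS groups overlap.

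All 16 called genes moved the same way in each of the 3 experiments, as did 43 of the whole set of 71. The 16 were called on these same arrays, so their agreement is not separate support for the calls. Taking all 12 arrays with LPS together, 18 of the 71 genes (25.4%) did not overlap the 3 arrays without, 9 higher and 9 lower, against 28.4% of all genes tested. Of these 18, 14 were among the 16 called. The remaining 4, named after their values were seen, were Mrpl11, Mrpl51 and Mrps25 on the lower side and Mrps10 on the higher. With experiment as a block in the fit, the calls numbered 11 higher and 7 lower: all 16 stood, and Mrpl22 (0.28) and Mrpl57 (0.31) joined them, with adjusted p of 0.0466 and 0.044. The share of all genes called with the block is not given here.

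By subunit, 8 large subunit genes rose and 5 fell of 43, which is 30.2% called. Of 28 small subunit genes, 1 rose and 2 fell, which is 10.7%, against 29.8% of all genes tested. The median difference was 0.01 for the large subunit and -0.06 for the small, and with each array centred on its median it was 0.0737 for the large and 0.0013 for the small. The difference between the subunits was not tested. Symbols and position do not always match: in structures of mammalian mitoribosomes, Mrps30 and Mrps18a lie in the large subunit, and Mrps36 is now known as a component of the 2-oxoglutarate dehydrogenase complex. None of these passed, with differences of 0.03 (-0.15 to 0.20) for Mrps30, 0.12 (-0.11 to 0.34) for Mrps18a and -0.06 (-0.37 to 0.26) for Mrps36. Counted by position, the calls were the same over 45 large and 25 small subunit genes.

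The 3 Mrps18 paralogs, of which the mammalian ribosome uses each at a different place, gave no call. On the brighter of their 2 probe sets, Mrps18b had 0.004 (-0.19 to 0.20) and Mrps18c -0.20 (-0.47 to 0.07). The dimmer Mrps18b probe set differed by 0.21, at 8.71, 8.71 and 8.68 with LPS and vehicle, against 8.40, 8.53 and 8.55 without LPS. The dimmer Mrps18c probe set differed by -0.38. With the mean of all probe sets neither gene was called. Mrps12, Mrpl12 and Mrpl58, named for their known roles, were not called either. Mrps12, the counterpart of the bacterial decoding-centre protein S12, differed by 0.08 (-0.13 to 0.30). Mrpl12 of the stalk that recruits translation factors differed by -0.12 (-0.34 to 0.10). Mrpl58, a peptidyl-tRNA hydrolase built into the large subunit, differed by 0.08 (-0.15 to 0.31).

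The differences of the 55 genes that were not called lay between -0.36 for Mrps27 and 0.31 for Mrpl57, both named after their values were seen. Mrps15, among the brightest small subunit probe sets, had 9.25, 9.29 and 9.11 in LPS-treated cells with vehicle, against 9.57, 9.49 and 9.40 in cells without LPS. These 6 values did not overlap, yet the difference of -0.27 (-0.53 to -0.01) did not pass over all genes (adjusted p = 0.12), and the HDHEA arrays reached 9.44. Mrps7, the counterpart of a bacterial protein that helps the small subunit form, had 8.40, 8.49 and 8.54 with LPS and vehicle, against 8.50, 8.44 and 8.47 without LPS, and differed by 0.01 (-0.21 to 0.23).

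Genes with a bacterial counterpart, assigned by the standard names of mammalian mitoribosomal proteins, were called higher in 5 and lower in 4 of 43 cases. Those found only in mitochondria were called higher in 4 and lower in 3 of 27. The shares called were 20.9% and 25.9%, against 29.8% of all genes tested, and the classes were not tested against each other.

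For 9 genes the array carried 2 probe sets. They were furthest apart in Mrpl47, singled out after its values were seen: the brighter probe set, used here, had an LPS difference of -0.16, and the dimmer one -0.70. On the dimmer probe set the values were 5.37, 5.50 and 5.57 in LPS-treated cells with vehicle, against 6.14, 6.09 and 6.30 in cells without LPS. On the brighter one they were 6.07, 6.45 and 6.09 with LPS and vehicle, against 6.47, 6.41 and 6.22 without LPS, and the groups overlapped. With the mean of all probe sets of a gene, Mrpl47 was called lower, so its call depends on the probe set choice.

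A RefSeq promoter window was found for 62 of the 71 genes. The ETS letters CCGGAAG, read on both strands, were in 37.1% of these 62 genes, against 16.7% of the 12028 tested genes with a window. The NRF1 letters GCGCATGC were in 11.3%, against 5.17% of tested genes, and the YY1 letters AAGATGGCG in 12.9%, against 2.91%. Each motif was counted on its own, and overlaps with another motif were not removed. At least 1 of the motifs was in 53.2% of the 62 genes and in 22.8% of tested genes. The ETS and YY1 letters stood in promoters of genes that moved in opposite directions. The NRF1 letters were in 2 of 8 genes called higher with a window and in 0 of 7 called lower, which was not tested. Of 8 genes called higher with a window, 5 held at least 1 motif, and of 7 called lower, 5 did. A match describes letters in a window and is not evidence of binding.

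Of the 62 genes, 21 (33.9%) share their promoter region with a gene that starts nearby on the other strand, as did 15.5% of tested genes. Mrpl18 fell by 0.71, while its partner Tcp1, a subunit of the cytosolic chaperonin, differed by -0.13 (adjusted p = 0.206). Mrpl49 fell by 0.57, while its partner Fau, which encodes a cytosolic ribosomal protein, differed by -0.06 (adjusted p = 0.621). Mrpl32 and its partner Psma2, a proteasome subunit, both rose, by 0.32 and 0.23. Mrpl57 (0.31, not called) faces Ska3, a spindle gene, which fell by 1.65 (adjusted p = 2.41e-06). Mrps12 (0.08) faces Sars2, the mitochondrial seryl-tRNA synthetase, which fell by 0.60. These pairs were chosen after their values were seen.

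Other genes of mitochondrial translation were read from further lists. The 3 subunit genes with other symbols that had a probe set, Dap3, Gadd45gip1 and Ptcd3, gave no call, with differences of 0.10, -0.06 and 0.01. Of 26 genes of ribosome assembly and RNA modification, 3 rose and 1 fell, with a median of -0.08. That is 15.4% called, against 29.8% of all genes tested. Tfb1m, which methylates the small subunit RNA, rose by 0.45, Mterf4, a partner in large subunit assembly, by 0.46 and Ngrn by 0.42, and the assembly factor gene Rbfa fell by 0.29. Of 13 translation factors, 1 rose and 2 fell (23.1% called). Guf1, a translating GTPase, fell by 0.97 and Mtfmt, which formylates the initiator tRNA, by 0.60, while the recycling factor gene Mrrf rose by 0.29.

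Among 19 mitochondrial aminoacyl-tRNA synthetases and amidotransferase subunits, 2 rose and 6 fell, with a median of -0.20. That is 42.1% called, against 29.8% of all genes tested. Cars2 fell by 0.61, Sars2 by 0.60 and Qrsl1 by 0.50, and Rars2 rose by 0.32. Of 14 genes that maintain or transcribe mitochondrial DNA, 2 rose and 3 fell (35.7% called), with a median of -0.22. The exonuclease gene Mgme1 fell by 0.86 and Polrmt, the mitochondrial RNA polymerase, by 0.35, while Tk2 rose by 0.49 and Ssbp1 by 0.32. Of 9 regulators of mitochondrial biogenesis, 1 rose and 3 fell (44.4% called). Nrf1 fell by 0.70, Gabpb2 by 0.81 and Ppargc1b by 0.44, and Esrra rose by 0.44.

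Against these, 64 cytosolic ribosomal protein genes gave 0 calls higher and 2 lower in limma (Rpl30 and Rpl23a), with a median of -0.08. That is 3.125% called, against 29.8% of all genes tested. An unadjusted p under 0.05 was found for 11 of 64 (17.2%), against 37.8% of all genes tested. Of 71 subunits of the respiratory chain and ATP synthase, 1 rose and 11 fell (16.9% called), with a median of -0.11. Ndufs8 fell by 0.70 and Sdha by 0.33, and Ndufs4 rose by 0.53. No list was tested against another. In the same comparison all 6 LPS response genes examined rose, with a median of 5.89, and all 25 cell cycle and DNA replication genes fell, with a median of -1.58. The part of the cell cycle change in the ribosomal protein values was not tested.

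**Figure D3:**
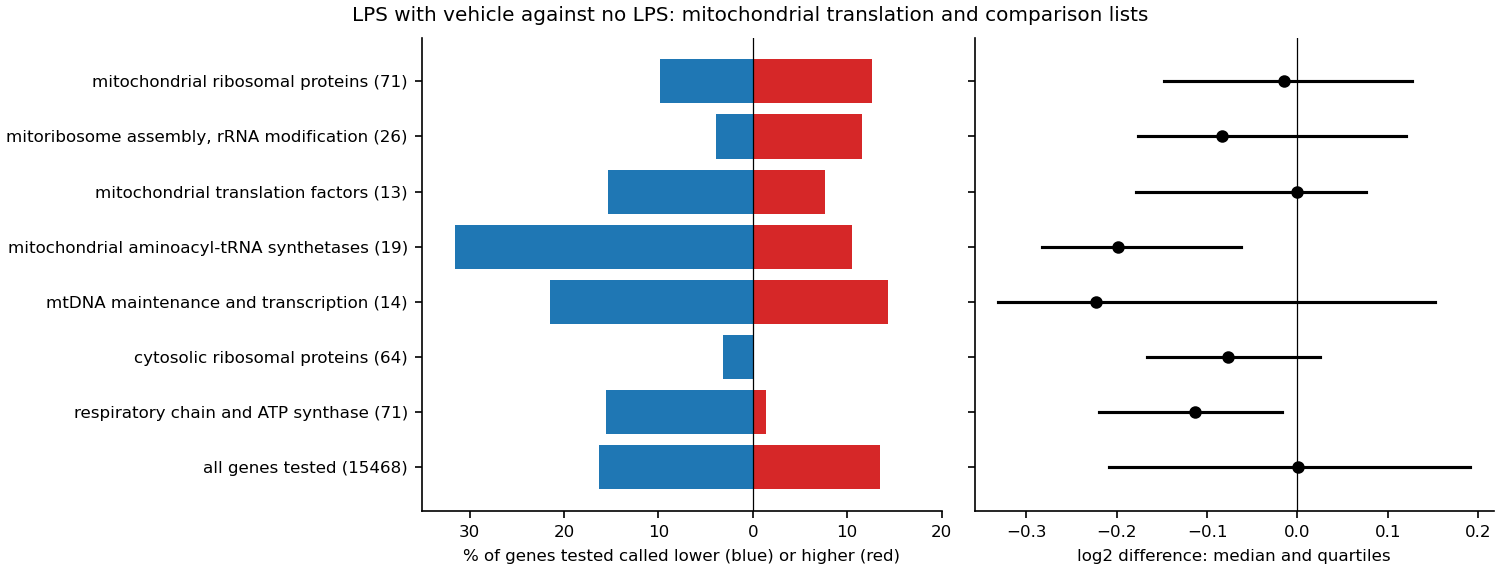
Calls and differences for LPS with vehicle against no LPS, by gene list, with the number of genes tested in parentheses. Left, the percentage of genes called lower (blue) and higher (red); right, the median log2 difference (point) and quartiles (line); the mitochondrial ribosomal proteins have calls on both sides and a median of -0.01, and the aminoacyl-tRNA synthetases a median of -0.20.

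The next comparisons asked whether HDHEA treatment changed these transcripts in LPS-treated cells. In no case did a gene of the set pass. For 13-HDHEA against vehicle, 0 of 71 were called in limma (0.00646% of all genes). An unadjusted p under 0.05 was found for 0 of 71, against 4.267% of all genes. No gene of the set was called for 16-HDHEA against vehicle (0.0% of all genes) or for the combined treatment against vehicle (0.0%). Each had 0 of 71 at an unadjusted p under 0.05, against 2.974% and 3.485% of all genes. Adjusted p were 0.9998 or higher. These comparisons share the vehicle arrays. With experiment as a block, and under every other setting tried, the count was also 0.

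The median difference over the 71 genes was -0.01 for 13-HDHEA, -0.01 for 16-HDHEA and -0.02 for the combined treatment. The median half-width of the 95% intervals was 0.217. In each of the 3 comparisons the intervals of 68 of the 71 genes lay within 0.5 on either side of 0 on the log2 scale, a change of 1.41-fold. The exceptions, in each comparison, were Mrpl27, Mrps14 and Mrps27, the last named after its values were seen. With the 3 HDHEA groups averaged against vehicle, 0 of 71 genes were called (0.0% of all genes). At an unadjusted p under 0.05 in limma there were 0 of 71, against 3.788% of all genes. The intervals were narrower, with a median half-width of 0.177.

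The genes with the smallest p show the size of the differences seen. Mrpl1, of the stalk that helps release spent tRNA, had 6.31, 6.39 and 6.46 with 13-HDHEA and 6.51, 6.34 and 6.34 with 16-HDHEA, against 6.31, 6.34 and 6.04 with vehicle. Its difference from vehicle was 0.16 (-0.04 to 0.35) for 13-HDHEA and 0.16 (-0.03 to 0.35) for 16-HDHEA. The vehicle value of experiment 3 was the low one, and the groups otherwise overlapped. Mrps31, a mitochondria-specific small subunit protein, differed by -0.18 (-0.38 to 0.03) for 16-HDHEA and by -0.18 (-0.39 to 0.02) for the combined treatment.

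Mrpl50, a mitochondria-specific large subunit protein, had 8.04, 8.02 and 8.08 with 16-HDHEA, against 8.20, 8.12 and 8.26 with vehicle. The 2 groups did not overlap, but the difference was small, at -0.15 (-0.34 to 0.04, adjusted p = 0.9998). Mrps9, the counterpart of bacterial S9, differed by -0.17 (-0.42 to 0.08) in the same comparison.

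Mrps14, a dim probe set, had 3.78, 4.45 and 4.19 with the combined treatment, against 4.66, 4.78 and 4.27 with vehicle. The difference was -0.43 (-0.86 to 0.0003), with an adjusted p of 1.0. The 3 experiments gave -0.88, -0.33 and -0.08. Mrps33 had 6.34, 6.41 and 6.28 with the combined treatment, against 6.44, 6.62 and 6.45 with vehicle, a difference of -0.16 (-0.32 to 0.01) and a narrower spread. Mrps12 had differences of -0.20, -0.15 and -0.17 between 13-HDHEA and vehicle in the 3 experiments, and -0.18 (-0.39 to 0.04) in all, without passing.

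The isomers were compared at the same dose, 5.0 µM, and the same time, the 1 matched pair in the design. Of the 71 genes, 0 differed between 13-HDHEA and 16-HDHEA in limma (0.00646% of all genes did), and every adjusted p was 1.0. An unadjusted p under 0.05 was found for 0 of 71, against 3.103% of all genes. The median difference, 13-HDHEA minus 16-HDHEA, was 0.002. The intervals of 70 of the 71 genes lay within 0.5 on either side of 0. The exception was Mrpl27, which had 2.70, 3.25 and 4.05 with 13-HDHEA and 3.66, 4.15 and 3.70 with 16-HDHEA. Its difference was -0.51 (-1.06 to 0.05), negative in 2 of 3 experiments, on a probe set whose lowest value lay below the array's 40th percentile. Mrps22, which rose with LPS, had 7.45, 7.39 and 7.57 with 13-HDHEA and 7.74, 7.54 and 7.65 with 16-HDHEA, a difference of -0.17 (-0.37 to 0.02). The combined treatment held each isomer at 2.5 µM, so its doses match neither single treatment.

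The 4 groups with LPS thus gave nearly the same values for each gene. The spread between their means, highest minus lowest, had a median of 0.11 over the 71 genes and exceeded 0.25 only in Mrpl27 (0.51) and Mrps14 (0.43). For 14 of the 16 genes called for LPS, every HDHEA array lay on the same side of the cells without LPS as the vehicle arrays did. These 16 were chosen by their difference between vehicle and no LPS on the same no-LPS arrays, so the count is not independent of that choice. The same share over all called genes is not given here. Over all 71 genes, 25.4% had no overlap between arrays with and without LPS, against 28.4% of all genes tested.

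**Figure D4:**
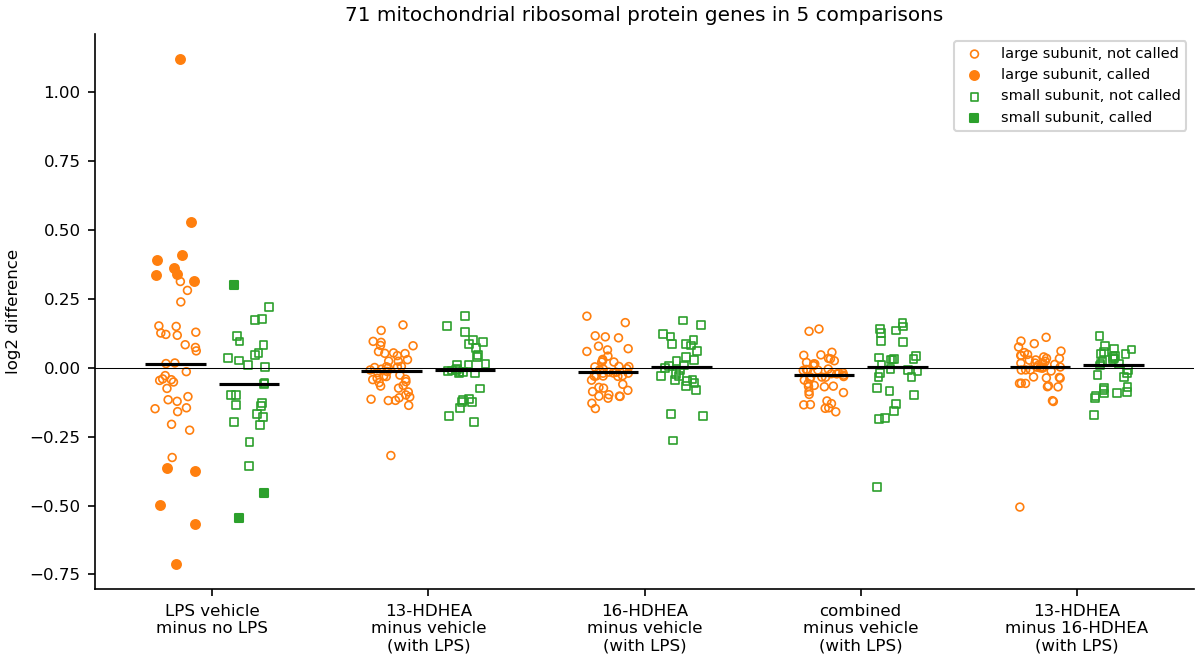
Log2 difference of the 71 genes in 5 comparisons, with large subunit genes as orange circles and small subunit genes as green squares; filled symbols were called, bars are medians, and each point is a limma estimate from 3 arrays a group. Filled symbols occur only for LPS against no LPS, and the points far from 0 in the HDHEA comparisons are Mrpl27 and Mrps14.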

How the data were processed

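Total RNA of RAW264.7 cells was measured on 15 Affymetrix arrays, 3 a group, with groups taken from the sample titles. The authors deposited 1 log2 value per probe set and array, made with RMA, per the submitters' processing notes. RMA corrects background, quantile-normalizes and summarises probes. Its version is not given in the sources used here. Values ran between 0.473 and 13.36. Symbols came from the platform's gene table.

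Genes above the array's 40th percentile in at least 3 arrays were fitted in limma 3.58.1 (R 4.3.3; lmFit, then eBayes, two-sided) on group means over all arrays, with 10 residual degrees of freedom. The fit was tested on simulated data with independent arrays, which did not include the pairing by experiment. Differences are the first group minus the second, intervals are 95%.

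The members, lists and tests were chosen with earlier results of these data known. Genes were named by size and direction among LPS calls, smallest p in HDHEA comparisons, highest and lowest levels, and a short set of known roles. In other lists up to 4 genes with the smallest p were eligible.

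In the labels, arrays with the same replicate number carry the same experiment identifier, so numbers pair arrays. Deviations from group means correlated at 0.0835 to 0.404 over 30 same-numbered pairs, above 0.1 in 28. The fits without and with this block were both run. Alternatives covered the filter, scaling, probe set choice, the groups in the fit and each array left out. Promoter letters came from RefSeq's GRCm38.p6 tables.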

Additional observations from a re-analysis of the deposited data

How the results depend on the processing

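The number of arrays, 3 a group, limits precision, and changes of dim probe sets are compressed. With the replicate block, LPS calls numbered 11 higher (10 of the large subunit) and 7 lower, and no HDHEA call was added. Leaving out 1 array at a time, higher calls ranged between 5 and 10 (large subunit 5 to 9, small subunit 0 to 1) and lower calls between 6 and 9. The share of all genes called under each alternative setting is not given here, so the counts in this section cannot be set against it. The low count of 5 came without vehicle replicate 2, when the higher calls of Mrpl32, Mrpl35, Mrpl55 and Mrps22 were lost. There the lower call of Mrpl28 was lost too, and Mrpl47, Mrpl51 and Mrps5 were called lower. Mrps22, the small subunit's 1 higher call, was also lost without vehicle replicate 1 or no-LPS replicate 3. Small subunit genes called higher numbered 2 with a 60th percentile filter, with arrays centred on their median and with quantile normalization repeated, and 0 when the fit held just the compared groups. Centring moved the LPS median to 0.0444 over all 71 genes, 0.0737 over the large and 0.0013 over the small subunit. The small subunit median ranged between -0.1158 and -0.0026 with 1 array left out, and the combined treatment's between -0.0456 and 0.0059. The sign of these medians is therefore not settled, and the causes were not tested. Each gene named by size, smallest p, level or known role was also refitted under each setting. Of these refits 29 lost a call, 1 gained one, 1254 kept the call or its absence, and none reversed a called direction. Genes named on other grounds are outside this count. Among them, Mrps10, Mrpl22, Mrpl57, Mrpl47, Mrpl51 and Mrps5 each gained an LPS call in at least 1 setting.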
